A study of Mus musculus with 9 samples.

Results

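Notch signalling passes between touching cells. A ligand on one cell (Dll1 or Jag1 among others) binds a Notch receptor on its neighbour, the receptor is cut, and its released inner part enters the nucleus, joins the DNA-binding protein RBPJ and switches on repressor genes of the Hes and Hey families. In the forming nephron the pathway is known for its part in laying out proximal tubule and podocyte fates, with Notch2 as the receptor most needed. Described here are 10 genes of this pathway, chosen by name: the receptors Notch1, Notch2 and Notch3, the ligands Dll1 and Jag1, the receptor-modifying sugar transferase Lfng, the nuclear effector Rbpj, and the targets Hes1, Hes5 and Hey1. Taking every probe set that the platform annotation pairs with exactly 1 of these symbols gave 17 probe sets for the 10 genes, out of 22626 probe sets that are not controls and 12393 named genes.

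RNA came from 3 structures microdissected by their shape from wild-type E14.5 kidneys of strain 129 (Theiler stage 22, embryos of unknown sex) and was read on Affymetrix MOE430A arrays. The nephron starts as the renal vesicle, a small epithelial ball, which grows and folds into the s-shaped body. The collecting duct is the branching drainage epithelium beside them and stands here as the structure outside the nephron. Each structure had 3 arrays, each of a separate sample that the labels call a biological replicate, made from pools of 20 structures for both nephron stages and with a pool size of 1 for the collecting duct. All RNA went through 2 rounds of amplification, and the submitters state that staining and RT-PCR served to check identity and foreign tissue.

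The labels were set beside marker genes before the members were read. Summed deposited intensity of early nephron markers (16 on the array) was 23600 to 25600 for renal vesicle arrays, 4760 to 5140 for s-shaped body arrays and 3800 to 4570 for collecting duct arrays, but this list holds Dll1 and Jag1 and is no independent check of them. Lhx1, which the nephron epithelium needs to form, read 1727 to 2129 in the renal vesicle against 81.53 to 97.13 in the s-shaped body. Pax8, another sample check, read 503.9 to 603.8 on renal vesicle arrays. On s-shaped body arrays it read 169.9 to 236.7, inside the collecting duct range of 137 to 248.3 (log2 difference 0.06, adjusted p = 0.85, limma). Nphs1, also a sample check, was 1055 to 1313 on s-shaped body arrays and at most 146.6 elsewhere. How far these arrays held early nephron epithelium was not tested. Comparisons with them do not separate stage from tissue content. The s-shaped body arrays carried podocyte markers (71200 to 82500, against at most 13600 and 2430 in the other structures) and also markers of other cells. Endothelial markers (16 on the array) summed to 19700 to 20700 there, against at most 1470 in the renal vesicle and 1530 in the collecting duct. Mural (9630 to 10700, elsewhere at most 1350), stromal (17600 to 23800, elsewhere at most 2690), erythroid (21300 to 24000, elsewhere at most 2940) and macrophage markers (3180 to 3840, elsewhere at most 921) were also highest there. Renal vesicle replicate 3 stood apart from its group in Podxl, the podocyte sialoprotein gene, at 3018 against 248.2 and 247.3. Collecting duct markers summed to 42600 to 55100 in their own structure, 3630 to 15300 in the renal vesicle and 1860 to 2040 in the s-shaped body, and cap mesenchyme markers to 1560 to 2260 in the renal vesicle and at most 843 elsewhere. The part of these markers in the members' levels was not tested. The collecting duct arrays held the keratin gene Krt8 at 14730 to 25730, but Aqp2, the water channel of the mature duct, at 158.7 to 258.5, inside the range of the other structures. They also held urothelial transcripts, with Trp63 at 1760 to 2985 (at most 82.68 elsewhere) and Upk3a at 477.2 to 769.4 (at most 46.79 elsewhere). Against the collecting duct Trp63 differed by -4.75 in renal vesicle and -5.22 in s-shaped body, and Upk3a by -3.39 and -3.97. The design does not separate the other differences from the collecting duct from this urothelial content, whose part in them was not tested. Wnt4, an early nephron gene, read 2196 to 2445 in the renal vesicle and 21.47 to 84.10 in the s-shaped body, but 1148 to 1829 in the collecting duct. In bulk samples such as these, fewer cells of a type and less RNA per cell cannot be told apart.

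**Figure D1:**
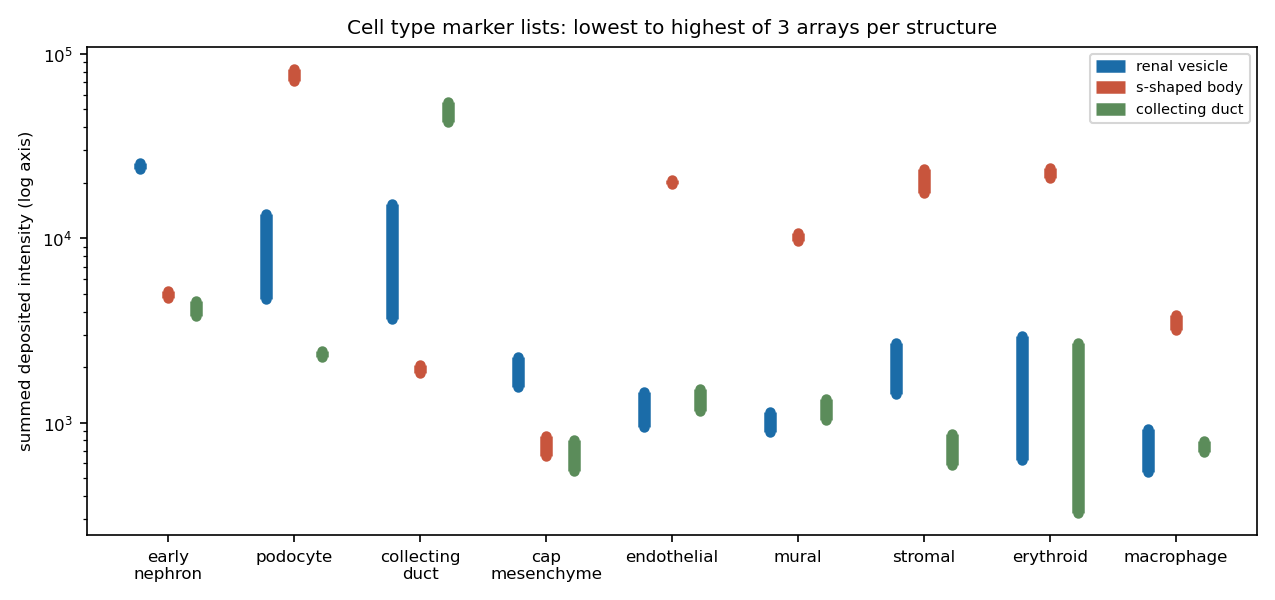
Summed deposited intensity of the marker genes of each cell type (log axis), as the range from the lowest to the highest of the 3 arrays of each structure. Endothelial, mural, stromal, erythroid and macrophage sums are highest in the s-shaped body arrays, and early nephron sums in the renal vesicle arrays.

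Promoter sequence is shown for 3 members that differed strongly between structures and for Lfng, which passed in no comparison. The RefSeq promoter table (build GRCm38.p6) matched 8 of the 10 members with 10 windows, of which the 250 bases before the start were read. The members without a window were the targets Hes1 and Hey1. They were searched on both strands for the RBPJ motif TGGGAA, which is part of the longer form GTGGGAA, and matches of the shorter form are in capitals (TTCCCA on the other strand). Hes5 is on chr4:154960673-154960922, plus strand, Lfng on chr5:140607091-140607340, plus strand, Dll1 on chr17:15376933-15377182, minus strand, and Jag1 on chr2:137116521-137116770, minus strand, each written 5′ to 3′ along its gene.
Hes5: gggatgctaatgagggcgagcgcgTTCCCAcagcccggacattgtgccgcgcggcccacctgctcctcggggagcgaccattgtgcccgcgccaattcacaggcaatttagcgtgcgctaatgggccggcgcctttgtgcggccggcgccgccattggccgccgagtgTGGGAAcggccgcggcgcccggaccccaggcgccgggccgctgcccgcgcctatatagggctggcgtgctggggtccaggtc
Lfng: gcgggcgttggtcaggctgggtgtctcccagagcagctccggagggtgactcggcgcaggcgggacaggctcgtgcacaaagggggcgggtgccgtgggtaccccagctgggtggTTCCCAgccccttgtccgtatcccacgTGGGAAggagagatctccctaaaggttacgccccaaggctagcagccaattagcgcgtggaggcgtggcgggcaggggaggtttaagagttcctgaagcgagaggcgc
Dll1: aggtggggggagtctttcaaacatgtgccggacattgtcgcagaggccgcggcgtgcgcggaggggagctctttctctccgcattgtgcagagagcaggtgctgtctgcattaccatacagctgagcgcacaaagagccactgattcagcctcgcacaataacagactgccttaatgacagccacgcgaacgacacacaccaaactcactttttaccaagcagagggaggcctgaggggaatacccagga
Jag1: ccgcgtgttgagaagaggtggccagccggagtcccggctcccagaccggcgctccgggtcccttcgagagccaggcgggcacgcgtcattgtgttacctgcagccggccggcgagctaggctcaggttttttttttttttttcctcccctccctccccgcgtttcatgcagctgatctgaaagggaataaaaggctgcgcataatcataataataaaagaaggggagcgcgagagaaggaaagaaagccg
The Hes5 window held TGGGAA 2 times, beginning 226 and 82 bases before the start, and both matches extended to GTGGGAA. The Lfng window held it 2 times as well (135 and 108 bases before the start), 1 of them extended, and the Dll1 and Jag1 windows shown held none. Of the windows not printed, the overlapping Rbpj windows held 2 and 1 matches, none of them extended. The Notch1, Notch2 and Notch3 windows and the other Dll1 window held none. Of all 32851 windows of this length 21.6% held TGGGAA and 2.77% held it 2 or more times. GTGGGAA was held by 5.42%, and 2 or more times by 0.161%. These are matches of letters, not sites shown to be bound.

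All 10 members passed the filter on dim probe sets (brighter than the array median on 3 or more arrays), as did 15 of their 17 probe sets. Jag1 and Hes5 passed through the 3 renal vesicle arrays alone, and Hey1 through the 6 nephron arrays alone, so counts over the members are descriptions. Each gene was represented by its brightest probe set. Values were tested with limma on all 9 arrays as log2(intensity + 26) after quantile normalization, with p-values adjusted by the Benjamini-Hochberg method over 7998 genes and 0.05 as the threshold. Levels of different probe sets are not comparable with each other, so each gene is compared across structures.

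The ligands were highest in the renal vesicle. Dll1, the Delta-type ligand, read 1233, 1536 and 1785 in the renal vesicle, 336.4, 343.9 and 338.6 in the s-shaped body, and 195.1, 150.3 and 172.4 in the collecting duct. The 3 structures did not overlap, and the s-shaped body arrays lay close together. Dll1 was 7.99-fold higher in renal vesicle than in collecting duct (log2 difference 3.0, SE 0.18, adjusted p = 1.8e-07, limma, n = 3 arrays per structure). In the s-shaped body it was 1.87-fold above the collecting duct (0.91, SE 0.18, adjusted p = 0.0019) and 4.27-fold below the renal vesicle (-2.09, SE 0.18, adjusted p = 3.9e-06).

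Jag1, the Serrate-type ligand, read 460.9, 395.3 and 410.5 in the renal vesicle, 84.26, 69.52 and 64.46 in the s-shaped body, and 10.07, 26.44 and 67.69 in the collecting duct. The renal vesicle arrays stood well above all others, while collecting duct replicate 3 lay just above the lowest s-shaped body array in deposited units. Jag1 was 8.78-fold higher in renal vesicle than in collecting duct (log2 difference 3.13, SE 0.28, adjusted p = 4.6e-06) and 4.79-fold lower in s-shaped body than in renal vesicle (-2.26, SE 0.28, adjusted p = 6.6e-05). The s-shaped body exceeded the collecting duct by 0.87 (SE 0.28, adjusted p = 0.031). That last call was lost when any of 5 arrays was left out, with adjusted p = 0.082 without renal vesicle replicate 1, 0.10 without s-shaped body replicate 1, 0.072 without s-shaped body replicate 2, 0.10 without collecting duct replicate 1 and 0.092 without collecting duct replicate 2. It was also lost with no further normalization (0.059) and in a fit of the 2 structures alone (0.085). The dimmer Jag1 probe set was below the array median on all 9 arrays (17.24 to 68.53) and passed in no comparison.

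The receptors differed less than the ligands. Notch2 read 3852, 3447 and 4751 in the renal vesicle, 2085, 1717 and 2152 in the s-shaped body, and 1404, 2109 and 1672 in the collecting duct. All renal vesicle arrays exceeded all others, and the s-shaped body and collecting duct overlapped. Notch2 was 2.26-fold higher in renal vesicle than in collecting duct (log2 difference 1.18, SE 0.19, adjusted p = 0.00057) and 1.92-fold lower in s-shaped body than in renal vesicle (-0.94, SE 0.19, adjusted p = 0.0022). Its difference between s-shaped body and collecting duct did not pass (0.23, 95% interval -0.18 to 0.65, adjusted p = 0.39).

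The direction for Notch2 rests on the probe set. Its dimmer probe set read 93.14, 124.7 and 96.83 in the renal vesicle, 190.3, 264.8 and 278.3 in the s-shaped body, and 111.8, 145.8 and 167.4 in the collecting duct, so that the s-shaped body was highest. In a fit of all 22626 probe sets with no filter, s-shaped body against renal vesicle was 0.88 (SE 0.20, adjusted p = 0.012) by this probe set and -0.94 (SE 0.19, adjusted p = 0.0054) by the brighter one. With the mean of both, the difference was -0.03 (adjusted p = 0.90), that of renal vesicle against collecting duct was 0.49 (adjusted p = 0.032), and that of s-shaped body against collecting duct passed at 0.46 (adjusted p = 0.041).

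Notch1 was bright on every array, at 1993, 2036 and 2196 in the renal vesicle, 1707, 2269 and 2021 in the s-shaped body, and 1591, 1698 and 1270 in the collecting duct. Both nephron structures lay above the duct without overlap, but by too little to pass: 0.42 (95% interval 0.06 to 0.78, adjusted p = 0.069) and 0.40 (0.05 to 0.76, adjusted p = 0.079). Median centring in place of quantile normalization brought the first to 0.61 (adjusted p = 0.022). Between the nephron structures the difference was -0.02 (95% interval -0.37 to 0.34).

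Notch3, a receptor known from mural cells, ran the other way. It read 696.6, 951.3 and 567.7 in the renal vesicle, 1258, 991.9 and 1056 in the s-shaped body, and 1343, 1322 and 2154 in the collecting duct. The collecting duct arrays were the highest, and the renal vesicle was 2.05-fold below them (log2 difference -1.03, SE 0.25, adjusted p = 0.0069). The s-shaped body lay between and differed from neither neighbour beyond the threshold (-0.50, adjusted p = 0.15 against collecting duct, and 0.53, adjusted p = 0.12 against renal vesicle). It passed against the renal vesicle without collecting duct replicate 3 (0.53, adjusted p = 0.039), and against the collecting duct with the mean of both probe sets (-0.55, adjusted p = 0.016). In the s-shaped body arrays mural markers summed to 9630 to 10700, against 1030 to 1350 in the collecting duct, and their part in the Notch3 level was not tested. The bright Notch3 probe set has the suffix _s_at, which marks probes shared by several transcripts, and the dimmer one differed by -0.70 in the renal vesicle (adjusted p = 0.12, fit of all probe sets).

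**Figure D2:**
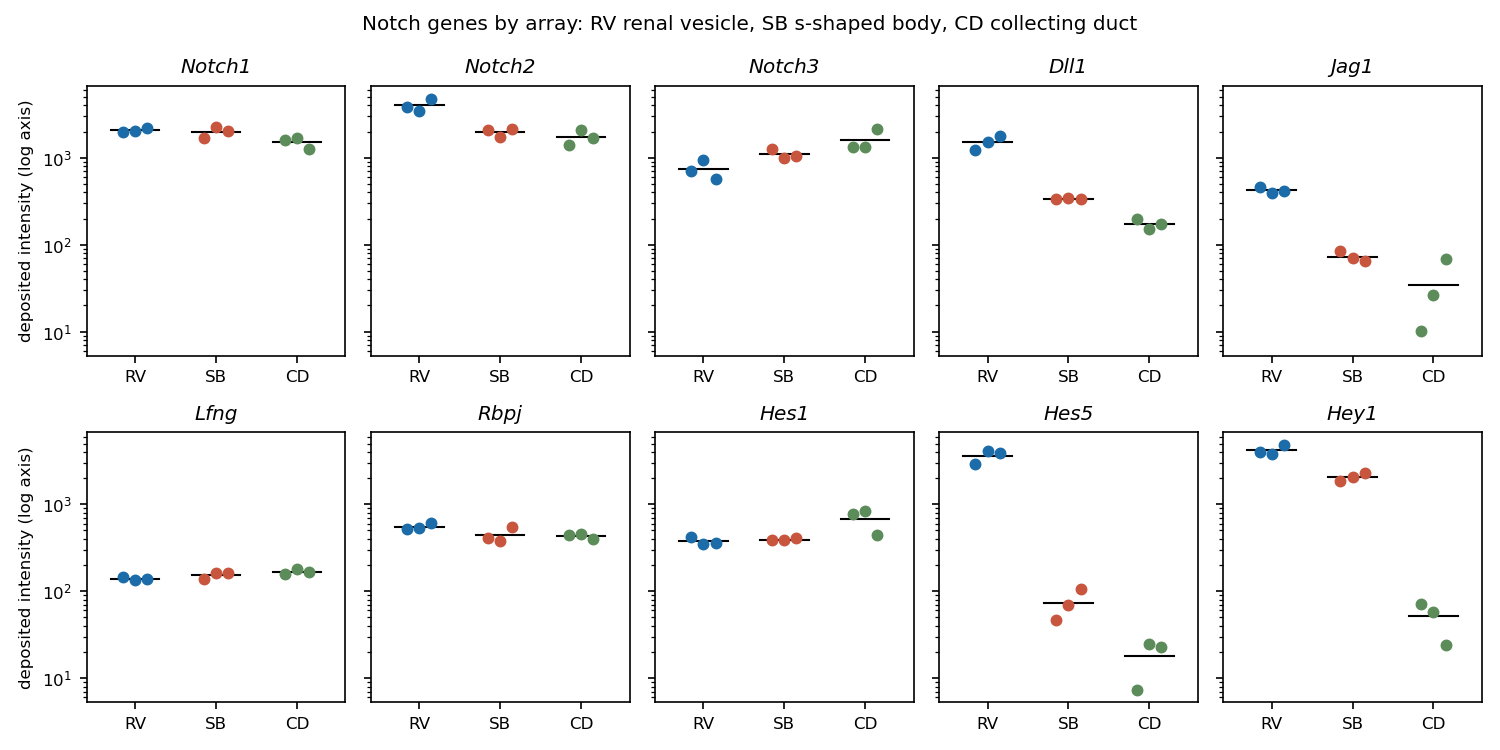
Deposited intensity (log axis) of the representing probe set of each gene, with 1 point per array and a line at the mean of 3 arrays. Dll1, Jag1, Hes5 and Hey1 are highest in the renal vesicle, Notch3 and Hes1 in the collecting duct, and Notch1, Lfng and Rbpj passed in no comparison by these probe sets.

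Lfng encodes a sugar transferase of the Fringe family that modifies Notch receptors and shifts their choice of ligand. Its brighter probe set read 143.9, 134.9 and 138.7 in the renal vesicle, 137.6, 161.2 and 161.4 in the s-shaped body, and 158.6, 179.8 and 165.3 in the collecting duct. The renal vesicle lay below the collecting duct in deposited units, but after normalization all structures overlapped and no comparison passed. The 95% intervals were -0.46 to 0.30 for renal vesicle against collecting duct, -0.48 to 0.28 for s-shaped body against collecting duct and -0.40 to 0.36 for s-shaped body against renal vesicle. Its other probe set read 2.53 to 8.23 on all arrays, near the floor, so that probe set alone gives little room to see a change.

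For Rbpj, the DNA-binding partner of the cut receptor, the brighter probe set read 520.5, 529.4 and 606.6 in the renal vesicle, 407.1, 373.1 and 545.4 in the s-shaped body, and 448.0, 453.4 and 402.4 in the collecting duct. Its largest difference, s-shaped body against renal vesicle, was -0.40 (95% interval -0.78 to -0.01, adjusted p = 0.10). The dimmer probe set gave -0.71 for the same comparison (SE 0.19, adjusted p = 0.023, fit of all probe sets), as did the mean of both at -0.55 (adjusted p = 0.0081), and the brighter one passed without s-shaped body replicate 3 (-0.55, adjusted p = 0.040). Against the collecting duct neither nephron structure passed, at 0.38 (adjusted p = 0.12) and -0.02 (adjusted p = 0.96).

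The target genes parted from each other. Hes5, a basic helix-loop-helix repressor whose promoter window is printed above, read 2901, 4071 and 3865 in the renal vesicle, 46.07, 68.98 and 106.0 in the s-shaped body, and 7.27, 24.44 and 22.56 in the collecting duct. The signal was near the floor outside the renal vesicle, and no array of the other structures came near the vesicle's range. Hes5 was 85.1-fold higher in renal vesicle than in collecting duct on the log2(intensity + 26) scale (log2 difference 6.41, SE 0.23, adjusted p = 3.6e-09) and 37-fold lower in s-shaped body than in renal vesicle (-5.21, SE 0.23, adjusted p = 9.7e-08). The size of the first depends on the added constant, with 7.13 for a pseudocount of 10 and 5.76 for 50. The residual signal of the s-shaped body exceeded that of the collecting duct by 1.20 (SE 0.23, adjusted p = 0.0016), or by 0.32 with the mean of both probe sets (adjusted p = 0.31).

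The bright Hes5 probe set carries the suffix _x_at, which marks probes that may bind other transcripts too. The dimmer one lacks it and read 180.9, 357.6 and 269.6 in the renal vesicle against 15.35 to 62.75 in the s-shaped body, with 64.49 to 97.39 in the collecting duct. It again separated the renal vesicle from both, by 1.63 against the collecting duct (SE 0.34, adjusted p = 0.0082, fit of all probe sets) and by -2.19 for s-shaped body against renal vesicle (SE 0.34, adjusted p = 0.0013). It gave -0.56 for s-shaped body against collecting duct (adjusted p = 0.33), where the bright probe set gave a rise.

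Hey1, a related repressor, read 4013, 3765 and 4835 in the renal vesicle, 1875, 2078 and 2292 in the s-shaped body, and 71.84, 58.29 and 23.77 in the collecting duct. Both nephron structures stood far above the duct and did not overlap with each other. Hey1 was 57-fold higher in renal vesicle (log2 difference 5.83, SE 0.25, adjusted p = 1.1e-08) and 29.8-fold higher in s-shaped body (4.90, SE 0.25, adjusted p = 2.7e-08) than in collecting duct, and 1.91-fold lower in s-shaped body than in renal vesicle (-0.94, SE 0.25, adjusted p = 0.011). The differences from the collecting duct were 6.22 and 5.28 with a pseudocount of 10, and 5.41 and 4.48 with 50. Hey1 is also known from endothelium. In the s-shaped body arrays all 13 tested endothelial markers were higher than in either other structure (Kdr, a VEGF receptor gene, by 4.42 and 4.17), and their part in the Hey1 level was not tested. In renal vesicle against collecting duct 2 of the 13 were higher and 2 lower, with sums of 950 to 1470 and 1150 to 1530.

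Hes1, also a repressor of this family, was highest in the collecting duct. It read 420.4, 347.5 and 361.1 in the renal vesicle, 384.3, 386.0 and 407.0 in the s-shaped body, and 773.9, 827.8 and 443.6 in the collecting duct. The groups did not overlap, but collecting duct replicate 3 lay much nearer the nephron arrays than the others of its group. Hes1 was 1.61-fold lower in renal vesicle (log2 difference -0.68, SE 0.21, adjusted p = 0.028) and 1.65-fold lower in s-shaped body (-0.72, SE 0.21, adjusted p = 0.020) than in collecting duct, with -0.04 between the nephron structures (95% interval -0.50 to 0.42). These calls were lost without collecting duct replicate 1 (adjusted p = 0.075 and 0.060) or 2 (0.12 and 0.093). The first was also lost without renal vesicle replicate 2 (0.092) or 3 (0.066), with median centring (0.071) and in a fit of the 2 structures alone (0.064). In the fit of all probe sets the first was not called either (0.056). The second was also lost without s-shaped body replicate 1 (0.057) or 2 (0.062).

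**Figure D3:**
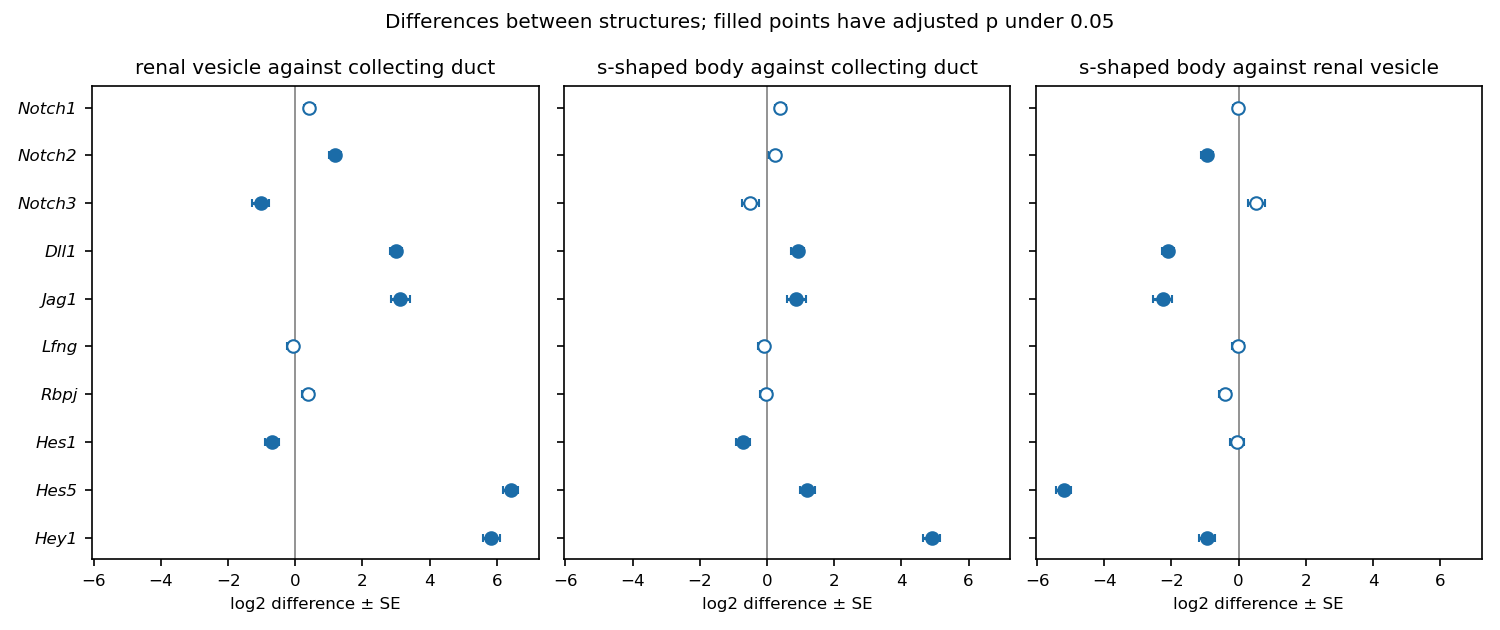
Log2 differences between structures with their SE (limma, 3 arrays per structure), filled where the adjusted p is under 0.05. Against the collecting duct, Hes5 and Hey1 stand at 6.41 and 5.83 in the renal vesicle and at 1.20 and 4.90 in the s-shaped body.

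Counted over the members, 5 were higher and 2 lower in renal vesicle than in collecting duct and 3 did not pass. Of all genes tested 31.5% differed there, 15.6% upward and 15.9% downward. The structures did not overlap for 9 members, against 43.3% of all genes, and the median log2 difference was 0.80 for the members and 0.01 for all genes. For s-shaped body against collecting duct 4 members were higher, 1 lower and 5 did not pass, where 32.8% of all genes were called (16.9% upward and 15.9% downward). Groups did not overlap for 7 members and 43.9% of all genes, with medians of 0.32 and -0.03. The count called was 3 in place of 5 without s-shaped body replicate 1 or 2 and without collecting duct replicate 1 or 2.

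For s-shaped body against renal vesicle 5 members were lower, 0 higher and 5 did not pass, where 36.3% of all genes were called (18.5% upward and 17.8% downward). By limma 0 members were higher at an unadjusted p under 0.05 as well. Groups did not overlap for 6 members and 52.9% of all genes, with medians of -0.67 and -0.03. These comparisons share arrays and are not independent. Without renal vesicle replicate 3, the array with podocyte transcripts, the counts called were 6, 5 and 5. By the F test over the 3 structures 7 members differed, where 49.6% of all genes did.

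Dll1, Jag1, Hes5 and Hey1 followed the order renal vesicle, s-shaped body, collecting duct with each step past the threshold, as did 66 of all 7998 genes (0.825%). For Jag1 and Hes5 the step from s-shaped body to collecting duct is not firm: it was lost in 7 of 18 alternatives for Jag1, and for Hes5 it was 0.32 (adjusted p = 0.31) with the mean of both probe sets and -0.56 by the dimmer one. Both passed the filter through the renal vesicle arrays alone, and Hey1 passed it through the nephron arrays alone. The same 4 members were those above the collecting duct in both nephron structures (6.11% of all genes). With Notch2 added they were the 5 with the renal vesicle above both other structures (8.2%). Hes1 was the member with the collecting duct above both nephron structures (8.28%), and 0 members had the s-shaped body above both others (10.8%).

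In the fit of all probe sets, 7 of the 17 member probe sets were called in renal vesicle against collecting duct (15.3% of all probe sets), 5 in s-shaped body against collecting duct (16.6%) and 8 in s-shaped body against renal vesicle (18.6%). The 8 were 7 that were lower and the dimmer Notch2 probe set, which was higher. The count of 5 was 3 when any 1 of the renal vesicle arrays, s-shaped body replicate 2 or 3, or collecting duct replicate 1 or 2 was left out.

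**Figure D4:**
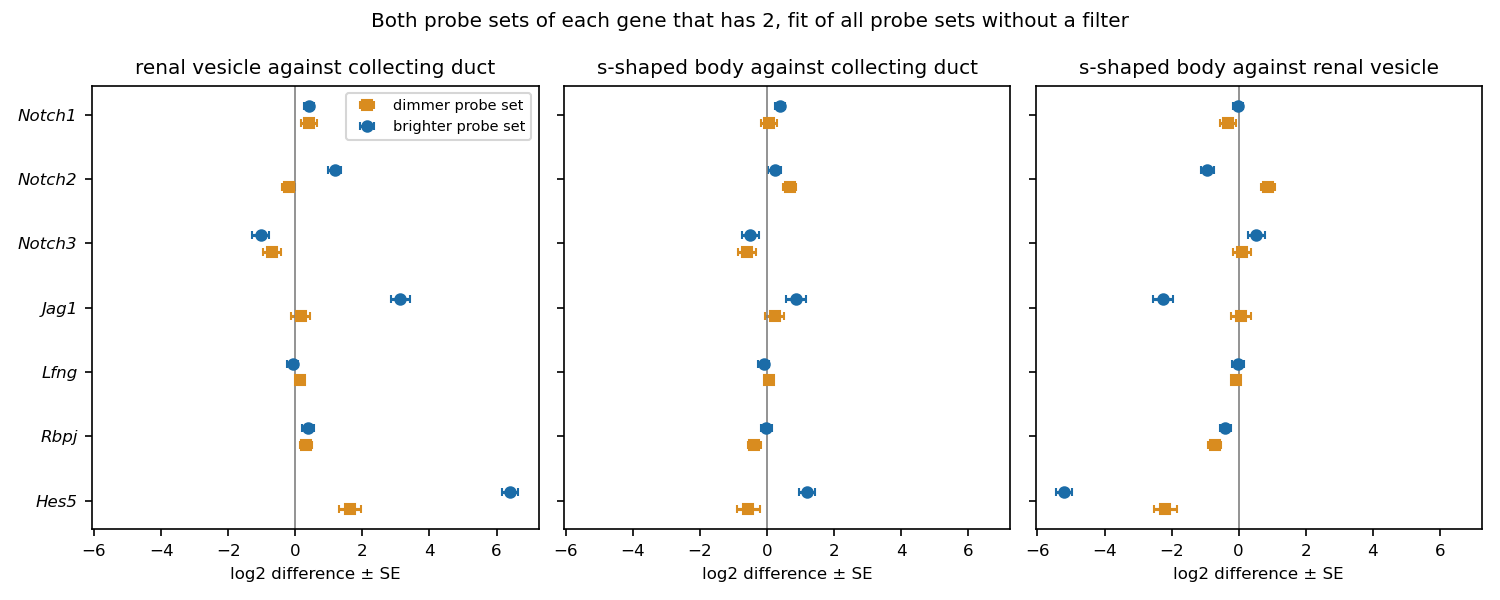
Log2 differences with their SE for both probe sets of the 7 members that have a pair, from the fit of all probe sets without a filter; circles are the brighter and squares the dimmer probe set. The pair of Notch2 points to opposite sides for s-shaped body against renal vesicle (-0.94 and 0.88), while both Hes5 probe sets lie below 0 there (-5.21 and -2.19).

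Genes with the closest pattern over the 9 arrays were listed by Pearson correlation of log2 values, as a description, since the points are 3 structures of 3 arrays. Dll1 was nearest to Skp2, a gene of cell cycle protein turnover (r = 0.99), and to Lhx1 (r = 0.989). Hes5 was nearest to Car4, a carbonic anhydrase gene (r = 0.992), and Tnfaip6 (r = 0.991), and Jag1 to Car4 (r = 0.987) and Adk (r = 0.986). Hey1 was nearest to Lama4, a laminin chain gene (r = 0.993), and Aldh1a2, which makes retinoic acid (r = 0.991). For Notch2 they were Phc1 (r = 0.98) and Fhod3 (r = 0.972), for Hes1 Phyh (r = 0.966) and Cpne3 (r = 0.96), and for Notch3 Rer1 (r = 0.963) and Plaur (r = 0.947). The nearest genes were Tmem185b (r = 0.953) and Ctcf (r = 0.949) for Rbpj, Wdr48 (r = 0.937) and Thap11 (r = 0.932) for Notch1, and Nudt3 (r = 0.886) and Epm2a (r = 0.885) for Lfng.

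The rest of the pathway was read from lists of 68 further genes, of which 56 were on the array with a single symbol and 43 passed the filter. In renal vesicle against collecting duct 7 were higher and 5 lower (27.9% called, median -0.01), in s-shaped body against collecting duct 9 and 4 (30.2%, median 0.02), and in s-shaped body against renal vesicle 9 and 7 (37.2%, median 0.08). These shares are near those of all genes (31.5%, 32.8% and 36.3%). The first count was 7 in place of 12 without renal vesicle replicate 1, and the third 10 in place of 16 without renal vesicle replicate 2.

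Other target genes were the list in which all 4 tested members differed between renal vesicle and collecting duct. Heyl, a Hey relative, read 610.7 to 661.2 in the renal vesicle, 412.2 to 555.1 in the s-shaped body, with 187.7 to 205.0 in the collecting duct. It was higher than the duct in both nephron structures, by 1.68 (SE 0.16, adjusted p = 9.5e-06) and 1.25 (SE 0.16, adjusted p = 7e-05). Another Heyl probe set gave 3.43 and 3.32, and the last of the 3 gave -0.45 and -0.72 without passing (adjusted p = 0.27 and 0.073, fit of all probe sets). The structure means of this last probe set were 5.16 to 5.89 in log2 units, near the floor. Nrarp, a feedback inhibitor of the Notch complex, was also higher in both, by 0.93 (adjusted p = 0.0016) and 1.34 (adjusted p = 7.6e-05). Its other probe set gave 0.61 (adjusted p = 0.099) and 0.44 (adjusted p = 0.24) and passed in neither.

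Dtx1, a Deltex gene, was higher in renal vesicle than in collecting duct by 1.37 (SE 0.22, adjusted p = 0.00054), and fell by 1.55 from renal vesicle to s-shaped body (adjusted p = 2e-04). Its arrays read 495.5, 509.3 and 580.8 in the renal vesicle, 224.0, 165.8 and 146.3 in the s-shaped body, and 135.0, 259.0 and 220.1 in the collecting duct. Hes6, which is known to counter Hes1, was lower in renal vesicle than in collecting duct (-0.93, adjusted p = 0.00084), whereas its other probe set gave 0.97 (adjusted p = 0.074, fit of all probe sets). Hey2 did not pass the filter. It read 81.90 to 118.7 in the renal vesicle, 97.39 to 111.6 in the s-shaped body, with 2.25 to 20.82 in the collecting duct, and in the fit of all probe sets it was higher in both nephron structures (1.91, adjusted p = 0.00023, and 1.83, adjusted p = 0.00019).

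Of 5 other ligands and receptors tested, 2 were higher in the s-shaped body than in the collecting duct (16.9% of all genes were). These 2, Notch4 and Dll4, passed the filter through the s-shaped body arrays alone, so counts with that structure are descriptions. In renal vesicle against collecting duct 0 passed with limma, at an adjusted p of 0.15 or more, and 0 had an unadjusted p under 0.05. In s-shaped body against renal vesicle 2 were higher and 1, the Delta-like gene Dlk2, was lower (-1.06, adjusted p = 0.029). In the fit of all probe sets that Dlk2 probe set did not pass (adjusted p = 0.067), and the other gave -0.43 (adjusted p = 0.53). Notch4, a receptor of endothelium, read 228.6, 324.8 and 295.6 in the s-shaped body against 31.68 to 47.88 in the renal vesicle and 38.13 to 44.67 in the collecting duct, a rise of 2.10 over the renal vesicle (SE 0.22, adjusted p = 1.9e-05). Its other probe set gave 0.23 (adjusted p = 0.49, fit of all probe sets). Dll4, the Delta ligand of endothelial cells, read 220.5, 165.4 and 196.4 in the s-shaped body against 48.64 to 72.94 in the renal vesicle, a rise of 1.23 (SE 0.26, adjusted p = 0.0025), and its other probe set gave 1.22. Mfng, a Fringe gene like Lfng, rose alongside by 1.56 (SE 0.24, adjusted p = 3e-04), from 55.41 to 122.0 in the renal vesicle to 301.1 to 379.9 in the s-shaped body. In the same arrays all 13 tested endothelial markers were higher, Cdh5 by 2.58, and their part in these rises was not tested. Jag2 read 142.7 to 156.7 in the renal vesicle and 205.5 to 279.5 in the s-shaped body, a difference of 0.47 that did not pass (adjusted p = 0.055), while its other probe set gave 1.47 (adjusted p = 0.013, fit of all probe sets) and was lower in renal vesicle than in collecting duct (-1.23, adjusted p = 0.037).

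Of 9 tested genes for processing and glycosylation 1 passed in renal vesicle against collecting duct, where 31.5% of all genes did. It was Poglut1, a sugar transferase acting on Notch repeats (0.62, SE 0.19, adjusted p = 0.029). Poglut1 was lower again in the s-shaped body (-0.75 against renal vesicle, adjusted p = 0.0089). Adam10, the protease that makes the first cut after ligand binding, differed by -0.13 and 0.14 from the collecting duct (adjusted p = 0.56 and 0.55). Rfng did not pass either (0.19 and 0.35, adjusted p = 0.61 and 0.32). Psen2, a catalytic subunit of the gamma-secretase, did not pass the filter. Aph1a, another subunit gene, was higher in s-shaped body than in renal vesicle (0.64, adjusted p = 0.039), but this was not called in the fit of all probe sets (adjusted p = 0.067), nor were its other probe sets (0.25 and 0.47).

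Regulators of receptor turnover included the strongest falls of the pathway lists. Lnx1, a ubiquitin ligase known to act on Numb, read 247.4 to 313.7 in the renal vesicle, 156.4 to 206.8 in the s-shaped body, with 1499 to 1797 in the collecting duct. It was 5.23-fold lower in renal vesicle (-2.39, SE 0.17, adjusted p = 7.9e-07) and 8.13-fold lower in s-shaped body (-3.02, SE 0.17, adjusted p = 7.2e-08), and its other probe set was lower too (-1.31 and -1.24). Numb, an inhibitor of Notch receptors, read 531.3, 773.3 and 759.3 in the renal vesicle, 1905, 1445 and 1564 in the s-shaped body, and 2836, 1993 and 1672 in the collecting duct. It was lowest in the renal vesicle, 2.97-fold below the collecting duct (-1.57, SE 0.22, adjusted p = 0.00016), and rose by 1.20 to the s-shaped body (adjusted p = 0.001). Its other probe set gave -0.08 and 0.01 for these comparisons. The structure means of that probe set were 4.95 to 5.03 in log2 units, near the floor, which gives little room to see a change. Mib1, a ligase that ligand-sending cells need, was 1.52-fold higher in renal vesicle than in collecting duct (0.60, SE 0.19, adjusted p = 0.029). The Mib1 difference was not called in the fit of all probe sets (adjusted p = 0.062). Its relative Mib2 was higher in s-shaped body than in collecting duct (0.78, adjusted p = 0.0041).

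Aak1, a kinase gene of clathrin-mediated uptake, read 5605, 5817 and 7237 in the renal vesicle, 10880, 11330 and 12440 in the s-shaped body, and 8116, 8023 and 8433 in the collecting duct. The structures did not overlap. It was 2.01-fold higher in s-shaped body than in renal vesicle (1.01, SE 0.13, adjusted p = 9.5e-05), lower in renal vesicle than in collecting duct (-0.53, adjusted p = 0.0084) and higher in s-shaped body than in collecting duct (0.47, adjusted p = 0.015). Its 4 other probe sets gave 0.99, 0.75, 0.01 and -0.42 for the first of these comparisons, of which 0.99 and 0.75 were called in the fit of all probe sets. Epn1, an epsin gene of ligand uptake, was lower in renal vesicle than in either other structure (-0.66 against collecting duct, adjusted p = 0.024, and 0.58 for s-shaped body against renal vesicle, adjusted p = 0.039). Neither Epn1 difference was called in the fit of all probe sets (adjusted p = 0.051 and 0.076).

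Among 13 tested nuclear cofactors 2 passed in renal vesicle against collecting duct, both higher, where 31.5% of all genes passed. In s-shaped body against collecting duct 2 were higher and 3 lower, where 32.8% of all genes passed. Hdac2, a histone deacetylase gene, was higher in renal vesicle than in either other structure (1.10 against collecting duct, adjusted p = 0.0092, and -1.08 for s-shaped body against renal vesicle, adjusted p = 0.0088). Kat2b, an acetyltransferase gene, was higher in s-shaped body than in either other structure (1.17, adjusted p = 0.0043, and 1.15, adjusted p = 0.0045), while its other probe set gave 0.03 and -0.02. The structure means of that probe set were 4.81 to 4.86 in log2 units, near the floor, with little room to see a change. The corepressor gene Tle3 was lower in s-shaped body than in collecting duct (-1.35, SE 0.25, adjusted p = 0.0011), and its other probe sets gave -0.83 and 0.23 without passing. The related Tle2 was lower in s-shaped body than in collecting duct (-1.15, adjusted p = 0.0041) and renal vesicle (-0.71, adjusted p = 0.048). The second Tle2 difference was not called in the fit of all probe sets (adjusted p = 0.095). The corepressor gene Ctbp2 was lower in s-shaped body than in renal vesicle (-0.93, SE 0.20, adjusted p = 0.0032) and collecting duct (-0.75, adjusted p = 0.012), while its other probe set gave -0.07 and -0.16. Of the acetyltransferase genes, Kat2a was higher in renal vesicle than in collecting duct (0.60, adjusted p = 0.026), with 0.13 and 0.21 by its other probe sets. The Kat2a difference was not called in the fit of all probe sets (adjusted p = 0.053). Crebbp was higher in s-shaped body than in collecting duct (0.79, adjusted p = 0.0096). Maml1, the coactivator that binds the Notch and RBPJ complex, passed in no comparison (-0.01, 0.31 and 0.32).

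**Figure D5:**
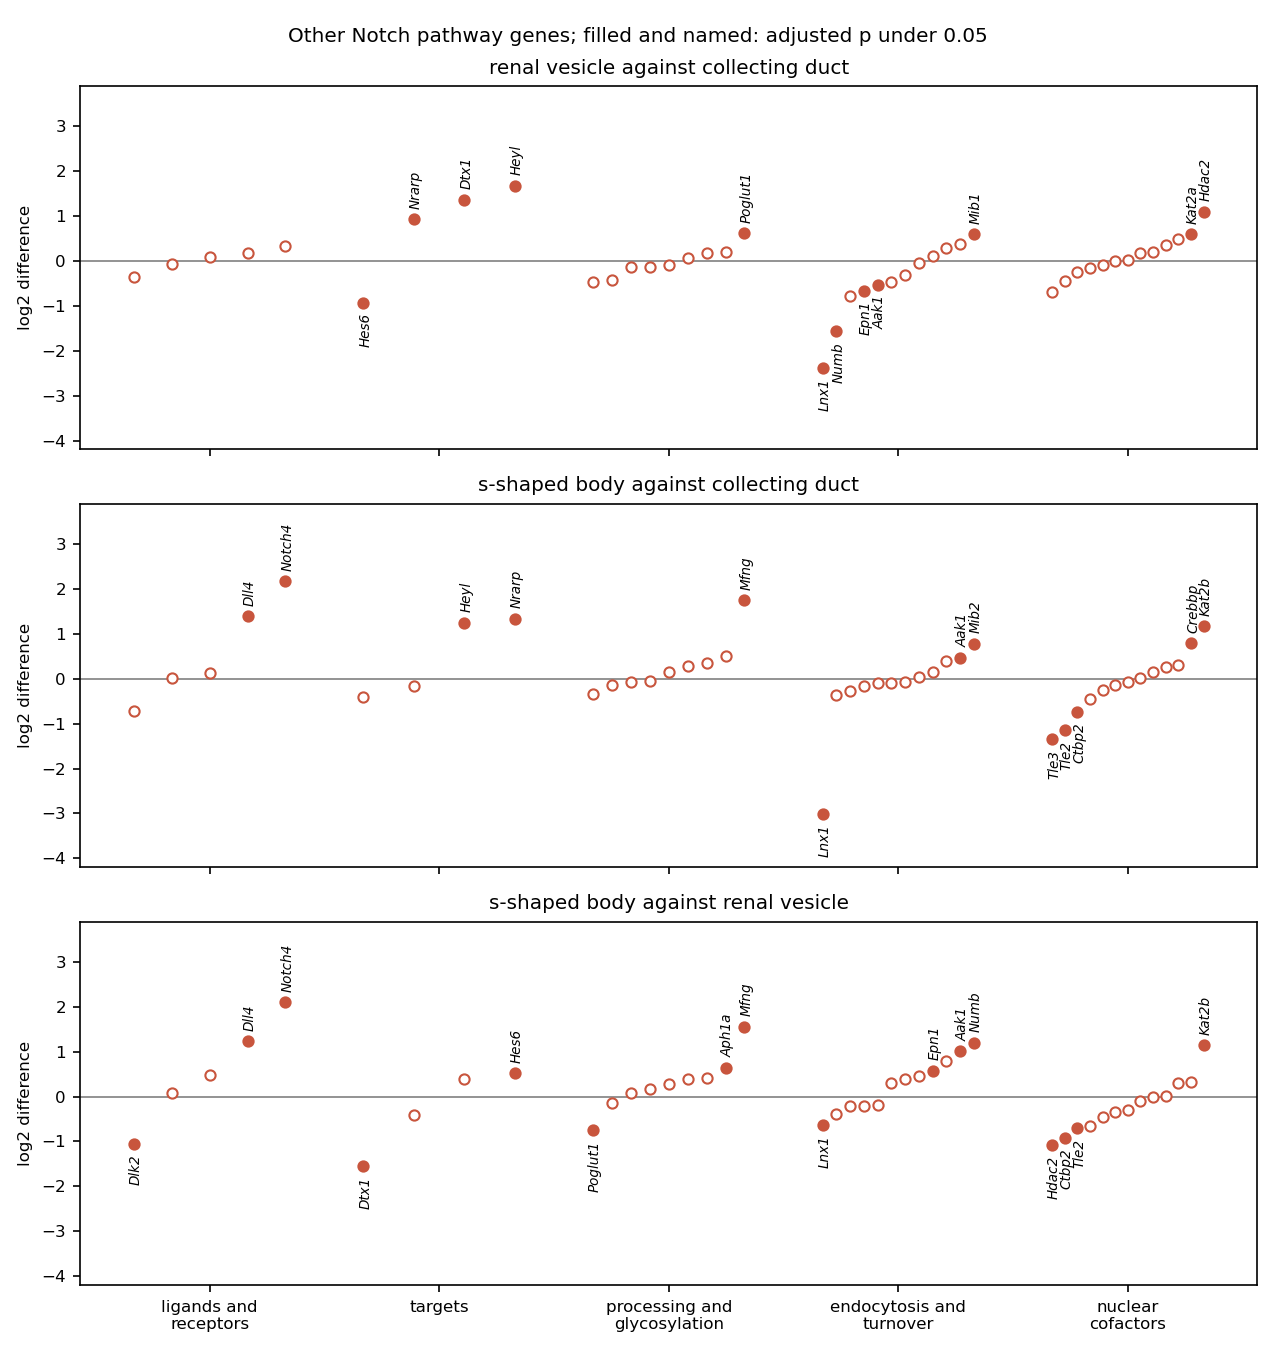
Log2 differences of the 43 tested Notch pathway genes outside the 10 members, grouped by role and ordered by value within a role, filled and named where the adjusted p is under 0.05. Heyl, Dtx1 and Hdac2 stand highest in renal vesicle against collecting duct and Notch4, Mfng and Dll4 in s-shaped body against renal vesicle, with Lnx1 lowest against the collecting duct.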

How the data were processed

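The deposited file held 1 intensity value per probe set and array on a linear scale. The authors used GCOS, per the submitters' processing notes, and the algorithm is not given in the sources used here. Array means trimmed by 2% at either end were 500.2 to 500.3, and array medians 112.2 to 144.8. Arrays give no counts, so their number limits precision. The labels do not say whether samples came from separate litters, so p-values measure the spread between these samples.

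The table held 22690 probe sets, 64 of them controls. Names came from the platform annotation of 2016. After a pseudocount of 26, set at percentile 20 of the table, log2 was taken, and because array medians differed by 0.305 (limit 0.25) the arrays were quantile normalized. Tests were two-sided, in limma 3.58.1 and R 4.3.3 with an intensity trend and 6 residual degrees of freedom. Every probe set was also fitted without the filter. The procedure was tested on simulated data.

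Members and lists were chosen with earlier results of these data known. The rule for named genes took all members, up to 4 called pathway genes per list and comparison by adjusted p, a set of pathway genes named whatever their values (among them Notch4, Dll4, Jag2, Mfng, Rfng, Heyl, Hey2, Psen2, Adam10, Maml1 and Numb), the 2 genes most like each member, and sample checks (Lhx1, Wnt4, Podxl, Krt8, Cdh5 and others). Kdr, Aqp2, Trp63 and Upk3a fall outside it and were chosen after their values were seen. Also outside the rule is Mib1, which was called but came after the first 4 of its list. List genes without a probe set of 1 symbol were not analysed here. Alternatives were other pseudocounts, scalings, filters and probe set rules, no trend, only the structures compared, the replicate number as a block, and leaving out each array.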

Additional observations from a re-analysis of the deposited data

How the results depend on the processing

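Of the 17 member differences past the threshold, 298 of 317 alternative values kept direction and call, 19 kept the direction without passing, and 0 turned. Of the other 13 differences, 228 of 247 alternative values stayed as they were, 6 came to pass and 13 changed sign, all of them near 0. For s-shaped body against renal vesicle these were Hes1 (0.06 with no further normalization, -0.10 to 0.14 leaving out 1 array), Lfng (0.12, and -0.06 to 0.14) and Notch1 (-0.11 to 0.09 leaving out 1 array). For s-shaped body against collecting duct, Rbpj was 0.02 with median centring, 0.01 with no further normalization and -0.17 to 0.09 leaving out 1 array. The cause was not tested. With the filter at 6 arrays, which Jag1 and Hes5 do not pass, 3 members were called in each comparison with the s-shaped body. Leaving out 1 array gave 3 to 5 members for s-shaped body against collecting duct, 5 to 6 for s-shaped body against renal vesicle, 7 to 12 pathway genes for renal vesicle against collecting duct and 10 to 21 for s-shaped body against renal vesicle. Of member probe sets, 5 were called for s-shaped body against collecting duct, 3 with only the 2 structures compared, and 3 to 6 without 1 array. Same-numbered arrays of different structures did not all deviate together (correlations of -0.034 to 0.16, against -0.16 to 0.15 for differently numbered arrays). All pairs of number 3 were positive (0.12, 0.12 and 0.13). Whether arrays of the same number shared a batch was not tested. With the replicate block the member counts called were 7, 5 and 5, equal to those without it, and the pathway counts were 14, 13 and 16 in place of 12, 13 and 16. Median centring moved the median of all genes from 0.01 to 0.11 in renal vesicle against collecting duct and from -0.03 to -0.11 in s-shaped body against renal vesicle, and rises made up 59.9% and 43.6% of calls there, against 49.6% and 51% with quantile normalization. Without detection calls, values near the floor, as of Hes5 and Jag1 in the collecting duct, have no firm order.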
